A study of Mus musculus with 10 samples.

Results

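The regions described here are stretches of accessible chromatin that were present in every ATAC-seq library of the embryonic mouse cochlear duct and stood lower in the peak ranking of SoxC double knockout libraries than in that of wildtype libraries. ATAC-seq uses a transposase that inserts adapters into open DNA, and its peaks mark accessible chromatin. In each library, overlapping peaks on chromosomes 1 to 19 were merged and ranked by the deposited -log10 p, so that rank 1 is the strongest, and each of the 50000 strongest was represented by its summit with 250 bp to either side. Windows that overlapped across libraries formed 76109 regions, of which 28316 had a window in all 5 libraries and are called shared. The members were chosen by these measured ranks: a shared region was called falling where the lower of its 2 knockout ranks was at least 2 times the highest of its 3 wildtype ranks. This held for 1881 regions, 6.64% of the shared regions. The mirror rule, with the lowest wildtype rank at least 2 times the highest knockout rank, gave 1474 rising regions (5.21% of the shared regions, and 7.73% of the 19067 that could pass it).

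The ATAC libraries were made at E13.5, in mid-gestation, from unsorted epithelia of the cochlear duct, freed with dispase and collagenase per the protocol while the titles say whole organ, from SoxC double knockout mice (2 libraries) and wildtype mice (3 libraries). The label of a single-cell library of the same series gives the knockout strain as Pax2cre with floxed SoxC alleles. The ATAC labels name neither the Cre line nor the deleted genes. Sox4 binding was mapped by CUT&RUN, called ChIP in the titles, with a guinea pig antibody in p27kip1-GFP positive cells of wildtype genotype, sorted by FACS at the same stage (3 replicates). The labels do not say how many embryos went into a library or whether replicates were separate pools, and no library with a control antibody was used here. Stage and enzymatic isolation of the epithelium were the same for all groups, and only the CUT&RUN cells were sorted. The files hold peaks and no counts, so read depth is unknown.

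SoxC is the group of HMG-box transcription factors made up of Sox4, Sox11 and Sox12, which bind a short AT-rich core motif and are known for driving differentiation of neurons and sensory cells. In the cochlear duct at this stage, cells of the prosensory domain leave the cell cycle and later give rise to hair cells and supporting cells. CUT&RUN cuts and releases the DNA around an antibody bound to a chromatin protein, so its peaks mark where that protein sits.

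The promoters of 7 falling regions are shown first, as examples and not as all that qualify. These regions lie on the start of a gene with a role in the inner ear or in a pathway treated below. Each stretch runs from 250 bases before to 50 bases after the RefSeq start on build GRCm38.p6, 5′ to 3′ on the strand of the gene. Capitals mark matches to the SOX core motifs AACAAT and ACAAAG, searched on both strands, which cannot match at the same position. The starts are those of Adgrv1, the large adhesion receptor of the ankle links of hair bundles, Isl1, a LIM homeobox factor known from the prosensory cells, Hey2, a repressor induced by Notch signalling, Myo6, an unconventional myosin that hair cells need, Isl2, a LIM homeodomain factor of sensory neurons, Dusp6, a phosphatase induced by Fgf signalling that inactivates ERK, and Fzd1, a Wnt receptor.
Adgrv1 promoter, chr13:81633095-81633394, minus strand: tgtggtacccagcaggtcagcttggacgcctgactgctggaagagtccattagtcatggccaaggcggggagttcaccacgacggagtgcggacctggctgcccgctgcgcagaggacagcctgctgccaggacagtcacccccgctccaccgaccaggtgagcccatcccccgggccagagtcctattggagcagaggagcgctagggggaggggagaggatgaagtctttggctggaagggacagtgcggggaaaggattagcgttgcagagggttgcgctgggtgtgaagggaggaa
Isl1 promoter, chr13:116309639-116309938, minus strand: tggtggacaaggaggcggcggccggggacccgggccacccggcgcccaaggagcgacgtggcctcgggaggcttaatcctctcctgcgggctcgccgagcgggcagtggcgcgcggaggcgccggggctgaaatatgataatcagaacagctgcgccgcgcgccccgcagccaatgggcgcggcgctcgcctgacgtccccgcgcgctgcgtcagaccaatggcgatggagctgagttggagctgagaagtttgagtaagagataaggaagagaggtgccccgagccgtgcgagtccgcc
Hey2 promoter, chr10:30842734-30843033, minus strand: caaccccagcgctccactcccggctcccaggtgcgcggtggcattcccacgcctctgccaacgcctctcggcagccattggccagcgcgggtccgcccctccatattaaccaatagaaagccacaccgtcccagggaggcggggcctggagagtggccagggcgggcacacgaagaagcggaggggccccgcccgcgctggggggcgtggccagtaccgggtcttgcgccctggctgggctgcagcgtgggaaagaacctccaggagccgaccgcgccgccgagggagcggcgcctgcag
Myo6 promoter, chr9:80164784-80165083, plus strand: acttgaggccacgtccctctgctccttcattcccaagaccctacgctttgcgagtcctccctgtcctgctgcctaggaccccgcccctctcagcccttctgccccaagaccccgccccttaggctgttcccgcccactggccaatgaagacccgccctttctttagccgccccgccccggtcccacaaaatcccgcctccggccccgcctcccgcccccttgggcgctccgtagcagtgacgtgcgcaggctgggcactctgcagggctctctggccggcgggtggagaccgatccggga
Isl2 promoter, chr9:55540899-55541198, plus strand: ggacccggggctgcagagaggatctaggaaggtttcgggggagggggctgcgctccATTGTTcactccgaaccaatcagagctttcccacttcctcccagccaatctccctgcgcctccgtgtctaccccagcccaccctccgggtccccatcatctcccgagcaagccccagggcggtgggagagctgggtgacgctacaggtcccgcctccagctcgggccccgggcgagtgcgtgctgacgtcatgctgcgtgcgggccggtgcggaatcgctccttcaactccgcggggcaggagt
Dusp6 promoter, chr10:99262981-99263280, plus strand: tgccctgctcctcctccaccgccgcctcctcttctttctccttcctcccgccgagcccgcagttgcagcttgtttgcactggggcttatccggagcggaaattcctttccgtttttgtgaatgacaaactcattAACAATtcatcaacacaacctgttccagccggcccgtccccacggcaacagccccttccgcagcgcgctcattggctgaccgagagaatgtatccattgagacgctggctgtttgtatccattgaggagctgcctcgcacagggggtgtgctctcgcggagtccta
Fzd1 promoter, chr5:4758167-4758466, minus strand: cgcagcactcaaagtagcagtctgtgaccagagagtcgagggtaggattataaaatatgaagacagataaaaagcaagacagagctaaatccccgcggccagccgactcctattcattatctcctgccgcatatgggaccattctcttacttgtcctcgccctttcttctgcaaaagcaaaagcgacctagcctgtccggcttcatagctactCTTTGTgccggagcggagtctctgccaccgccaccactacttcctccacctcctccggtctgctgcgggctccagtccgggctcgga
Isl2 and Dusp6 hold a match to AACAAT and Fzd1 holds a match to ACAAAG. The letters of neither motif occur in the Adgrv1, Isl1, Hey2 and Myo6 windows. Falling starts of other listed genes, not shown, also lack both motifs, namely Sox21, Pou4f1, Map2, Tbx18, Wwtr1, Epha7 and Tet3. The share of matches among the promoters shown is therefore not that of falling promoters, which is given below. The Myo6 stretch holds 6 matches to GGGCGGG, a motif bound by Sp and KLF factors, and the Hey2 stretch holds 2.

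The ranks chose the members, so ranks, -log10 p and fold enrichment are given as descriptions without a test. The median ratio of the lowest knockout rank to the highest wildtype rank was 2.66 (interquartile range 2.24 to 3.51). The ratio was at least 3 in 716 of the 1881 regions, at least 5 in 194 and at least 10 in 38, and its maximum was 30.7. The median rank of the falling regions was 20544 and 17755 in the knockout libraries, against 5264, 3933 and 3716 in the wildtype libraries. Between the 2 knockout ranks of a falling region the median ratio was 1.21, and at the other regions, defined below, it was 1.301. Only a shared region whose highest wildtype rank was at most 25000 could pass, and 11.1% of the 16990 such regions did. The remaining 15109 of them are the comparison class below and are called the other regions. A rank is relative to the other peaks of its list, so a lower rank need not mean less accessible chromatin. Because the tissue was a bulk sample, fewer cells with an open region and less opening per cell cannot be told apart either.

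**Figure D1:**
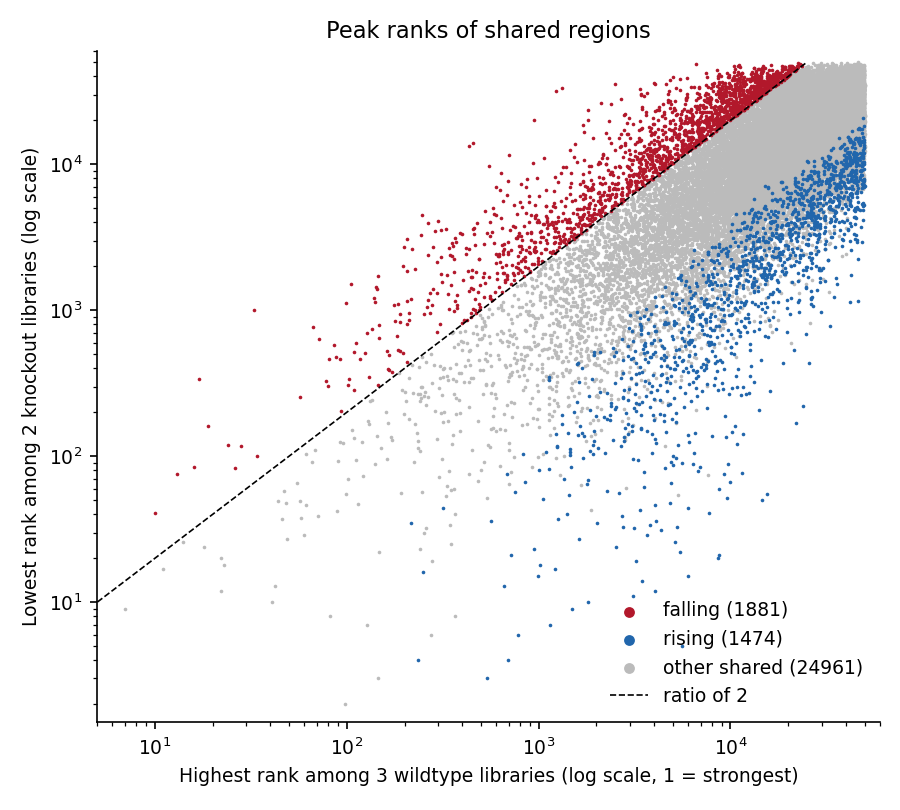
Lowest knockout rank against highest wildtype rank for every shared region, both on log scales, with falling, rising and other shared regions in separate colours and the ratio of 2 as a dashed line. The 1881 falling regions lie above the line at all wildtype ranks up to 23479, and the 1474 rising regions lie in the lower right.

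A fall in rank was seldom a fall in -log10 p. At falling regions the median -log10 p was 292 and 178 in the knockout libraries, against 166, 104 and 79.7 in the wildtype libraries. At the other regions it was 478 and 301 in the knockout libraries, against 117, 59.1 and 44.1 in the wildtype libraries. At rank 50000 the knockout lists stood at a -log10 p of 104 and 50.5, against 19.03, 10.5 and 8.75 in the wildtype lists. Both knockout values exceeded all 3 wildtype values at 1253 falling regions (66.6%), at 96.7% of all shared regions and at 98.8% of the other regions. Both were below all wildtype values at 2 falling regions, which are 0.00706% of the shared regions. These 2 lie 270096 bp from Gm11232 and inside Foxp2, a forkhead factor, and Foxp2 was singled out after its values were seen. The Foxp2 region had a -log10 p of 145 and 119.5 in the knockout libraries, against 173, 146 and 148 in the wildtype libraries.

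Fold enrichment, which sets the height of a peak against the signal around it in the same library, moved more often with the rank. Its median at falling regions was 12.95 and 12.5 in the knockout libraries, against 17.3, 14.98 and 13.3 in the wildtype libraries. Both knockout values were below all wildtype values at 801 falling regions (42.6%), against 5.3% of all shared regions and 4.32% of the other regions. Both were above them at 7 falling regions, against 40.4% of all shared regions and 27.2% of the other regions. Fold enrichment comes from the same peaks as the rank, so these counts describe the members and support nothing further. The wildtype lists held no peaks on the sex chromosomes and the knockout lists did, so list making and genotype cannot be told apart.

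The regions with the strongest wildtype peaks lay mostly on gene starts. The falling region with the best wildtype ranks lay on the start of Xrcc4, a DNA end-joining factor, with ranks 453 and 41 in the knockout libraries, against 1, 10 and 3 in the wildtype libraries. Msmo1, an enzyme of cholesterol synthesis, followed the same pattern with ranks 633 and 84 in the knockout libraries, against 5, 16 and 8 in the wildtype libraries. Hmgb2, an HMG-box chromatin protein of dividing cells, had ranks 1968 and 117 in the knockout libraries, against 15, 4 and 28 in the wildtype libraries. At these starts the knockout replicates differed from each other by a factor that exceeded the rule itself, with replicate 2 closer to the wildtype ranks. The other members of this top group were the starts of Cldnd1, Aasdhppt with Kbtbd3, Arl13b, a ciliary GTPase, and Hibch, and regions at Ebag9, Pcf11 and Adgrv1. Over all falling regions the better knockout rank was that of replicate 2 in 1333 (70.9%).

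The largest ratios belonged to a mixed group of genes. Gm14410 had ranks 22915 and 14046 in the knockout libraries, against 297, 96 and 457 in the wildtype libraries. Ano3, a member of the anoctamin membrane proteins, had ranks 13357 and 14679 in the knockout libraries, against 435, 261 and 64 in the wildtype libraries. The start of Adgrv1 had ranks 2738 and 1008 in the knockout libraries, against 16, 7 and 33 in the wildtype libraries, a ratio of 30.5. Its fold enrichment was 16.4 and 19.4 in the knockout libraries, against 22.8, 22.7 and 19.3 in the wildtype libraries, so that the groups overlapped in fold but not in rank. The rest of the 10 largest ratios, between 16.7 and 26.1, were at regions nearest to Gm11232, Hao1, Synpr, Ebag9, Rasa1, Diaph3 and Trim52. At the edge of the rule, the regions just inside had ratios of 2.00008 at Adgb, 2.00049 at Sox5 and 2.00065 at Ccnh. Those just outside had ratios of 1.99992 at Ccdc192, 1.99972 at Cldn23 and 1.99878 at Scyl2.

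Among genes of the prosensory domain, 12 of 65 regions that could pass were falling (18.5%), against 1615 of 15812 regions near any coding gene (10.2%), where a region counted for its nearest coding gene within 100 kb. They belonged to 8 of the 25 genes of the list with such a region, and 4 of 63 regions, at 3 list genes, were rising. The regions of this list had a median of 7 coding genes within 500 kb, against 11 over all regions near a coding gene. The list and all lists below are described by counts alone.

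Isl1 had the largest ratio among the regions of this list whose ranks are given here. Its start had ranks 23673 and 24488 in the knockout libraries, against 1812, 1375 and 900 in the wildtype libraries, a ratio of 13.1. Fold enrichment there was 9.17 and 8.60 in the knockout libraries, against 15.8, 14.4 and 13.8 in the wildtype libraries, and -log10 p was 259.6 and 133 in the knockout libraries, against 257, 163 and 143 in the wildtype libraries. The groups were apart in rank and fold and overlapped in -log10 p. All 3 shared regions within 100 kb of Isl1 were falling. The second, 15.6 kb downstream of the start, had ranks 39961 and 40175 in the knockout libraries, against 5023, 4081 and 4001 in the wildtype libraries. The third lay 108 kb downstream of the start and had ranks 11736 and 10650 in the knockout libraries, against 1717, 1057 and 1372 in the wildtype libraries.

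At any distance, Isl1 was the nearest coding gene of 9 shared regions, and 7 of them were falling, the largest number for any gene. Their ratios ran from 2.08 to 13.1. The gene stands alone, with 1 coding gene within 500 kb of its start region. A region 134 kb upstream had ranks 10668 and 4407 in the knockout libraries, against 1097, 968 and 534 in the wildtype libraries. A region 298 kb downstream carried a Sox4 site, with windows at Sox4 ranks 11803 and 11309 in replicates 1 and 2, and had ATAC ranks 23554 and 29256 in the knockout libraries, against 4242, 3240 and 1887 in the wildtype libraries. The neighbouring shared region, 299 kb downstream, was not falling, with ranks 14725 and 11180 in the knockout libraries, against 11699, 4617 and 4961 in the wildtype libraries. Such runs of falling regions around a gene were chosen for description after their counts were seen.

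**Figure D2:**
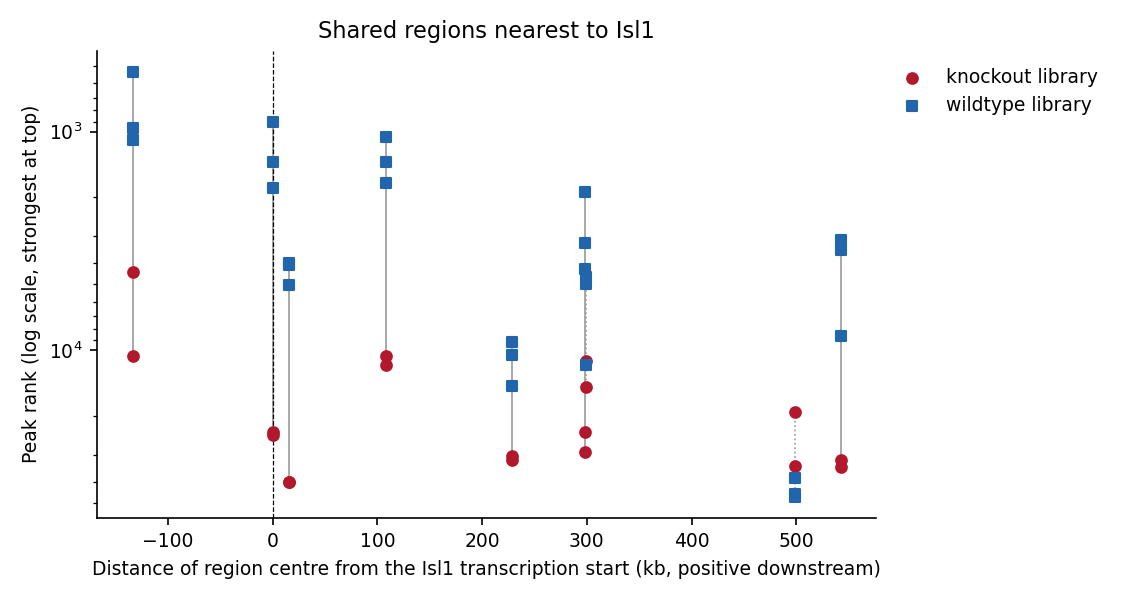
Peak ranks of the 9 shared regions nearest to Isl1 in each knockout and wildtype library, on a log scale with the strongest rank at the top, against distance in kb from the transcription start, with solid lines for falling regions and dotted lines for the others. In 7 of the 9 regions every knockout rank lies below every wildtype rank by a factor of at least 2.08.

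Hey2 had 3 falling regions out of 3 that could pass. Its start had ranks 5851 and 2101 in the knockout libraries, against 602, 381 and 299 in the wildtype libraries. Regions 85244 bp and 40355 bp from the gene had ratios of 4.80 and 2.37. Lgr5, the R-spondin receptor that marks supporting cells, had a falling region inside the gene with ranks 16924 and 16567 in the knockout libraries, against 1731, 1279 and 1013 in the wildtype libraries. This region was a Sox4 site with ranks 15 and 346 in Sox4 replicates 2 and 3. The start of Sox21, a SoxB2 factor, had ranks 17035 and 11093 in the knockout libraries, against 2147, 3754 and 3330 in the wildtype libraries. Lin28b, Gata3, Jag1 and Mycn had 1 falling region each, out of 2, 4, 4 and 4 that could pass, and Mycn also had 2 rising regions.

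Hair cell genes had 3 falling regions of 15 that could pass (20%) and no rising region. The start of Myo6 had ranks 6407 and 5539 in the knockout libraries, against 873, 888 and 724 in the wildtype libraries. The only shared region assigned to Pou4f3, the POU factor needed for hair cell survival, lay 15307 bp from the gene and had ranks 21491 and 22637 in the knockout libraries, against 7045, 4136 and 6171 in the wildtype libraries. At both genes the wildtype ranks lay closer to each other than to the knockout ranks, which the rule requires of every falling region. The third was at Rasd2, 514 bp from the gene, with a ratio of 2.12. Supporting cell genes had 2 falling regions of 28 (7.14%), at Slc1a3 and Cd44, and 2 rising of 33.

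Genes of the medial floor of the duct had 5 falling regions of 29 (17.2%), each at a different gene, and none rising. The strongest was 24126 bp from Rspo2, a secreted activator of Wnt signalling, with ranks 2697 and 2753 in the knockout libraries, against 282, 204 and 257 in the wildtype libraries. A region 17810 bp from Fst, the activin antagonist follistatin, had ranks 6744 and 6629 in the knockout libraries, against 1358, 1506 and 1867 in the wildtype libraries. Both knockout ranks lay close together at both genes. Calb1, Efnb2 and Fgf10 had 1 falling region each. Roof and lateral wall genes had 1 of 21, at Meis2, and 1 rising of 29.

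**Figure D3:**
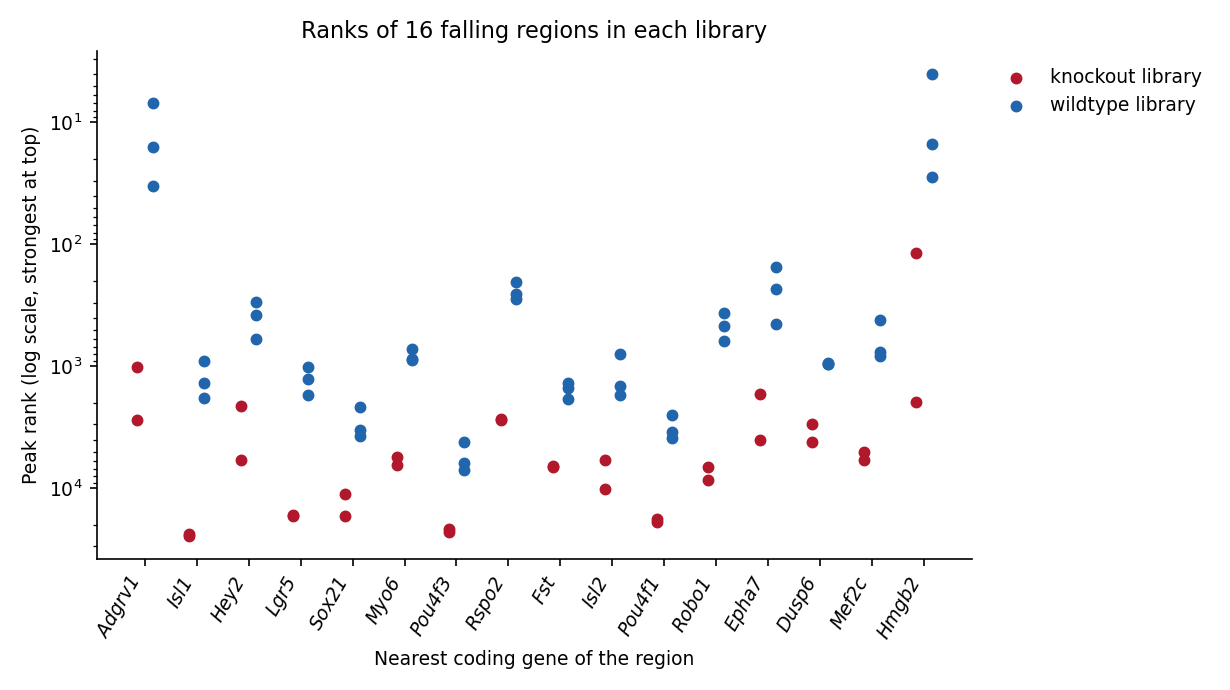
Ranks of 16 falling regions in each of the 2 knockout libraries (left of each pair) and 3 wildtype libraries (right), on a log scale with the strongest rank at the top, labelled by nearest coding gene. All knockout points lie below all wildtype points, as the rule requires, and the distance is widest at Adgrv1, where the ratio is 30.5, and at Isl1, where it is 13.1.

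Spiral ganglion neuron genes had 5 falling regions of 22 (22.7%) and 1 rising of 25. Regions of this list had a median of 6 coding genes within 500 kb, and those of the medial floor list 5, against 11 over all regions near a coding gene. The start of Isl2 had ranks 10059 and 5830 in the knockout libraries, against 790, 1463 and 1708 in the wildtype libraries, and the start of Pou4f1, a POU factor of sensory neurons, had ranks 18926 and 17724 in the knockout libraries, against 3425, 3841 and 2503 in the wildtype libraries. Map2, Ntrk3 and Gap43 had 1 each. Of 12 starts of this list in the RefSeq table of starts, 6 and 7 lay in the top 50000 peaks of the knockout libraries, against 9, 8 and 8 in the wildtype libraries. In the top 10000 lay 1 and 2 of these starts in the knockout libraries, against 4, 5 and 6 in the wildtype libraries. Otic mesenchyme genes had 2 falling regions of 14 (14.3%), at Vcan and Tbx18, glia and melanocyte genes had 2 of 14, and blood, endothelium and macrophage genes had 3 of 10, at Sox17, Cdh5 and Tal1, and 1 rising of 13. Of 11 starts of the last list, 1 and 0 were in the top 50000 of the knockout libraries, against 2 in each wildtype library. Epithelial genes had 1 falling region of 21, at Esrp1, and 3 rising of 32. Of 10 epithelial starts, 8 were among the top 50000 in both knockout libraries, against 8, 8 and 6 in the wildtype libraries, and 5 and 4 were in the top 10000 of the knockout libraries, against 2, 1 and 1 in the wildtype libraries. The median rank of the epithelial starts with a peak was 9053 and 17309 in the knockout libraries, against 23705.5, 29114.5 and 27801 in the wildtype libraries. For the spiral ganglion starts it was 22393 and 17724 in the knockout libraries, against 12269, 9714.5 and 9828.5 in the wildtype libraries. For the mesenchyme starts it was 61253 and 51927 in the knockout libraries, against 44890, 39248 and 23140 in the wildtype libraries. Of 13 mesenchyme starts, 2 had no peak in each knockout library, against 3, 4 and 4 in the wildtype libraries. The mesenchyme medians therefore cover different starts. In the top 50000 lay 5 of these starts in each knockout library, against 5, 5 and 7 in the wildtype libraries. By these medians epithelial starts stood higher in the knockout ranking and neuronal starts lower. Of the neuronal starts, 1 had no peak in each knockout library, against 1, 2 and 2 in the wildtype libraries. For the mesenchymal starts no direction is read from the medians. The part of cell composition in the falling regions was not tested. Of 19 prosensory starts, 16 lay in the top 50000 of each knockout library, against 16, 16 and 15 in the wildtype libraries. The median rank of those with a peak was 17035 and 16960 in the knockout libraries, against 13174, 14038 and 14308 in the wildtype libraries. For the glia and melanocyte starts it was 39765 and 36681 in the knockout libraries, against 25972, 26754 and 28496 in the wildtype libraries. By their medians both lists stood lower in the knockout ranking, again over partly different starts. For the blood list the knockout values of 97499 and 112976 overlapped the wildtype values of 102265, 70841 and 50846.

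Receptors, ligands and adhesion proteins of axon guidance and cell contact held the largest count of any list. Of 123 regions that could pass, 31 were falling (25.2%) and, of 97 that could pass the mirror rule, none was rising. The falling regions belonged to 21 of the 32 list genes with such a region. They included 3 regions each at Epha7, an ephrin receptor, and Nectin3, an adhesion protein, and 2 each at Robo1, a Slit receptor, Epha3, Sema3c, Efna5, Ctnna2 and Sema5a. The start of Epha7 had ranks 4002 and 1686 in the knockout libraries, against 452, 234 and 154 in the wildtype libraries. A region inside Robo1 had ranks 8551 and 6716 in the knockout libraries, against 365, 626 and 468 in the wildtype libraries, a ratio of 10.7. The regions of this list lie in gene-poor surroundings, with a median of 3 coding genes within 500 kb against 11 over all regions near a coding gene, and the part of gene density in the count was not tested.

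Among signalling pathways, the counts stand beside 10.2% falling and 7.97% rising over all coding genes. Fgf genes had 6 falling regions of 32 (18.8%), all at different genes and 5 of them at feedback inhibitors, namely Spry1, Spry2, Spred1, Spred2 and Dusp6, with the sixth at Fgf10, and 1 rising of 35. The start of Dusp6 had ranks 4202 and 2956 in the knockout libraries, against 954, 952 and 937 in the wildtype libraries, and lay on a Sox4 site with ranks 6042, 5356 and 3264 in the 3 Sox4 replicates. Close to the start of Spry2 the ranks were 8370 and 2621 in the knockout libraries, against 708, 614 and 821 in the wildtype libraries. Notch genes had 5 of 47 (10.6%), of which 3 were those of Hey2, with the others at Jag1 and Maml3, and 5 rising of 47. Wnt genes had 5 of 63 (7.94%), at Rspo2, Fzd1, Lgr5, Lgr4 and Vangl2, and 8 rising of 78. BMP and TGF-beta genes had 5 of 57 (8.77%), at Bambi, Fst, Bmpr1b and, with 2 regions, Gdf6, and 1 rising of 54. Hippo and TEAD genes had 2 of 34, at Stk3 and Wwtr1, and 1 rising of 39. Chromatin regulators had 3 of 34, at Ezh2, Tet3 and Eed, and none rising of 37. Cell cycle genes had 1 of 39 (2.56%), at Rb1, with 4 rising of 44. None of 19 regions of housekeeping genes and none of 5 regions of the SoxC genes was falling, and 2 of 21 housekeeping regions were rising.

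In all, 1392 of 20665 coding genes (6.74%) had a falling region within 100 kb. They were 13.4% of the 10421 genes with a region that could pass. A rising region was found at 1375 coding genes (6.65%), which were 12.0% of those with a region that could pass the mirror rule. Both kinds were found at 32 genes. Falling and rising regions differ in the gene density around them, as given below, and the part of density in this overlap was not tested. Single falling regions made up most of the genes, and 179 genes had at least 2. Gli3, a transcription factor of Hedgehog signalling, had 5 of 7 that could pass. Tle1, a Groucho corepressor, Mef2c, a MADS-box factor, Lsamp, a neuronal adhesion protein, and Ldb2, a cofactor of LIM proteins, were among the genes with 4. Of the regions that could pass, these were 4 of 5 at Tle1 and Ldb2, 4 of 8 at Mef2c and 4 of 10 at Lsamp. Genes with 3 included Pdgfd, out of 4, Adgrv1, out of 6, Nrxn3, out of 10, and Zbtb20, out of 14 with 1 rising. The strongest region of Gli3 lay inside the gene and had ranks 4750 and 3922 in the knockout libraries, against 601, 712 and 1069 in the wildtype libraries. The start of Tle1 had ranks 6642 and 1409 in the knockout libraries, against 143, 76 and 68 in the wildtype libraries. The wildtype ranks of these regions were within a factor of 3 of each other. Falling regions were also found near each other. Where the next region that could pass lay within 50 kb of a falling region, it was falling in 123 of 645 cases (19.1%). After a region that was not falling, it was falling in 521 of 7000 cases (7.44%). Regions this close have much the same gene density around them, and the part of density in these shares was not tested.

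The microRNA gene Mir9-2, downstream of Mef2c, had 3 falling regions within 10 kb. The region 2687 bp from its hairpin had ranks 5823 and 5082 in the knockout libraries, against 768, 420 and 819 in the wildtype libraries, and was a Sox4 site in all 3 replicates, at Sox4 ranks 108, 5641 and 272. The region beside Mir9-3, 109 bp from the hairpin, had ranks 49017 and 36153 in the knockout libraries, against 13489, 15831 and 15402 in the wildtype libraries. Both hairpins give the same mature microRNAs, which are abundant in neural progenitors. Their RefSeq sequences, with the seed in capitals, are the following.
mmu-miR-9-5p: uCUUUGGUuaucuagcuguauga
mmu-miR-9-3p: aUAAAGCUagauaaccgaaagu
A falling region 7287 bp from the hairpin of Mir367 lay near the cluster of Mir302 and Mir367 genes inside Larp7. It was a Sox4 site, with ranks 1993 and 2320 in the knockout libraries, against 455, 850 and 552 in the wildtype libraries. MicroRNA levels were not measured here.

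Position relative to genes was not used by the rule. Of the falling regions, 776 (41.3%, exact binomial 95% interval 39.0 to 43.5, for counting error only) lay at most 1 kb from a start or end of a coding gene, against 48.0% of the other regions. The share among rising regions was 59.5% and that over all shared regions was 36.1%. Transcription starts within 1 kb were counted at 36.2% of falling regions, against 45.5% of the other regions. These are undercounts, because the table of starts used here covered 16457 of the 20665 coding genes. Of the gene-end regions, the gene concerned had a start in it for 76.2% of the falling regions and 80.9% of the others. A further 521 falling regions (27.7%) lay inside genes, over 1 kb from an end, against 27.5% of the other regions. Outside genes the difference was in the other direction, with 584 falling regions (31.0%) against 24.5% of the other regions. The share over 100 kb from any coding gene was 14.1% (266 regions) among falling regions and 6.04% among the other regions. Regions are not replicates, so these differences carry no test over libraries.

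The direction of the gene-end difference depended on what was held fixed. Strong peaks are more often at gene ends, and within bins of the highest wildtype rank the falling regions had the lower share. Up to rank 5000 it was 60.5% of 868 falling regions against 73.0% of the others, from 5000 to 10000 it was 30.5% of 478 against 58.4%, and from 10000 to 15000 it was 19.8% of 363 against 46.0%. Within bins of gene density the order turned in gene-poor surroundings. With up to 2 coding genes within 500 kb, 23.3% of falling regions were at a gene end, against 11.8% of the others. With 3 to 5 genes the shares were 40.7% of falling regions and 26.4% of the others, and with at least 21 genes they were 52.6% and 70.4%. With rank and density both held, the falling share was lower or close to that of the others. With at most 5 coding genes around them, 50% of 388 falling regions were at a gene end, against 50.2% of 472 others, up to rank 5000. The shares were 22.7% of 260 falling regions against 27.8% of the others from 5000 to 10000, and 18.2% of 192 against 17.7% from 10000 to 15000. With 6 or more genes, they were 69.0% of 480 falling regions against 77.8% of the others, 39.9% of 218 against 65.5%, and 21.6% of 171 against 54.2% in the same order of ranks.

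Gene density itself set falling and rising regions apart. The median number of coding genes within 500 kb was 6 for falling regions, 11 for the other regions and 21 for rising regions. Among regions that could pass, 25.7% were falling where at most 2 coding genes lay within 500 kb. The share was 19.3% with 3 to 5 genes, 14.0% with 6 to 10, 5.97% with 11 to 20 and 1.52% with 21 or more. The rising share ran the other way, from 1.88% in the first of these classes to 14.8% in the last. The same gradient held among strong peaks, where 45.1% of regions up to rank 5000 were falling with at most 5 genes around them, against 17.9% with more. The link of density and base composition to how each list was made was not tested.

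**Figure D4:**
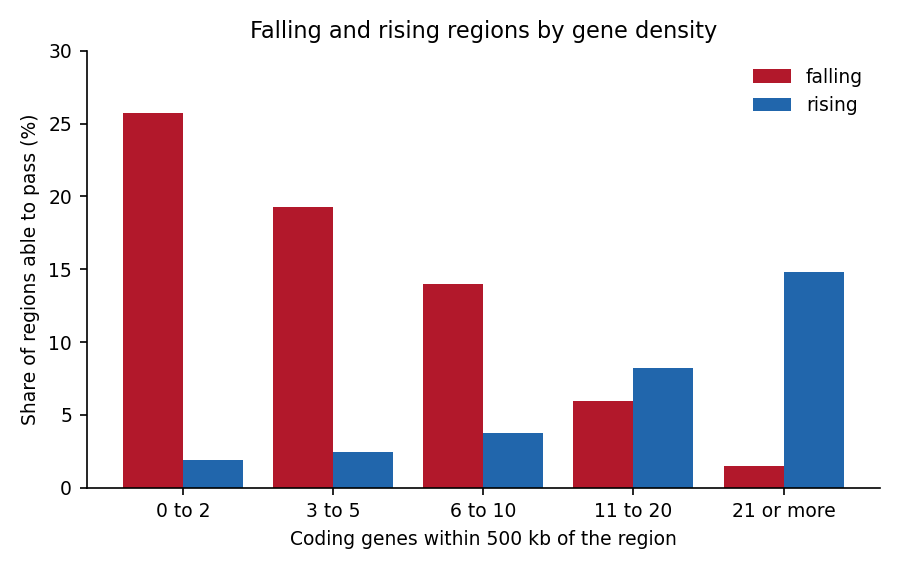
Share of regions able to pass the rule that were falling (left bars) or rising (right bars), in percent, by the number of coding genes within 500 kb. The falling share drops to 1.52% in the densest class and the rising share reaches 14.8% there.

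Promoter base composition also differed between the classes. For 595 falling regions that held a start, the median GC content of the promoter was 65.7% (interquartile range 58.7 to 71.0), against 61.7% for the other regions, with 56.7% for rising regions and 53% over all 31365 promoters of the RefSeq table. Among promoters with at least 70% GC, 15.6% of those able to pass were falling and 1.37% were rising. Between 50% and 60% GC, 6.02% were falling and 18.4% were rising. The falling share was 8.37% between 60% and 70% GC and 7.74% between 40% and 50%. Below 40% GC it was 10.5% of 19 promoters, so the falling share did not climb steadily with GC. The SOX core motifs had shares close to those of the other regions. AACAAT on either strand was in 5.88% of falling promoters (interval 4.13 to 8.09), against 5.38% of the others and 10.6% of all promoters. ACAAAG was in 11.3% of falling promoters, against 12.3% of the others and 18.6% of all. The GC-rich motif GGGCGGG was in 60.3% of falling promoters, against 53.2% of the others and 25.8% of all. The E-box CAGCTG, the class of site bound by bHLH factors, was in 18.8% of falling promoters, against 13.1% of the others and 16.3% of all. Shares below those of the others were found for the ETS motif CCGGAAG, with 13.3% of falling promoters against 20.9% of the others and 9.0005% of all, and for the YY1 motif AAGATGG, with 3.87% of falling promoters against 7.54% of the others and 6.38% of all. In all, 20 motifs were searched on both strands, those named besides the SOX motifs were picked after their shares were seen, and the part of GC content in the shares was not tested. A match is a stretch of letters, not a measured site.

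Sox4 binding was measured in other cells and was not used by the rule. A Sox4 site was a place where windows from the 20000 strongest peaks of at least 2 of the 3 CUT&RUN replicates overlapped, which gave 1706 sites. Falling regions carried such a site in 105 cases (5.58%, interval 4.59 to 6.72), against 5.33% of the other regions, 5.56% of rising regions and 3.42% of all shared regions. For each replicate on its own, the share of falling regions divided by that of the other regions was 1.02, 1.31 and 0.921, a mean of 1.08 ± 0.205 (SD, n = 3), so the difference was smaller than the spread between replicates. The exact two-sided sign-flip test over the Sox4 replicates gave p = 0.75, where 0.25 is the smallest that 3 replicates allow. It could therefore decide little, and it does not cover variation between ATAC libraries. The interval of the falling share contained the share of the other regions. Peak strength differed, with a median highest wildtype rank of 5799 for falling regions and 12649 for the other regions. Up to rank 5000, 7.95% of 868 falling regions had a site (interval 6.24 to 9.95), against 13.05% of the others. From 5000 to 10000 the shares were 4.39% of 478 (interval 2.74 to 6.64) and 7.39%. The falling share was lower in the bins from 10000 to 20000 and higher from 20000 to 25000. Each of these intervals contained the share of the others.

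The shares were also counted by position, and the difference between positions was not tested. Over 1 kb from a gene end, 66 of 1105 falling regions had a Sox4 site (5.97%, interval 4.65 to 7.54), against 3.60% of the other regions, and the ratio was 1.35, 1.70 and 1.41 in the 3 replicates (1.49 ± 0.183, SD, n = 3). At gene ends, 39 of 776 falling regions had a site (5.03%, interval 3.60 to 6.81), against 7.22% of the others, with ratios of 0.789, 0.856 and 0.643 (0.763 ± 0.109, SD, n = 3). All 3 replicates gave the same direction in each class, and the two-sided exact sign-flip test gave p = 0.25 for both, the smallest that 3 replicates allow. Distant falling regions had stronger wildtype peaks, with a median highest wildtype rank of 8168 against 15416 for the others. Within bins of that rank the direction varied. Up to rank 5000, 9.91% of 343 distant falling regions had a site against 13.3% of the others, and from 5000 to 10000 the shares were 5.12% of 332 distant falling regions and 5.45% of the others. From 10000 to 15000 they were 4.47% of 291 and 3.17%, and each of these intervals of the falling share contained the share of the others. At gene ends the share stayed lower within bins, at 6.67% of 525 falling regions against 12.96% of the others up to rank 5000, and at 2.74% of 146 against 8.78% from 5000 to 10000.

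**Figure D5:**
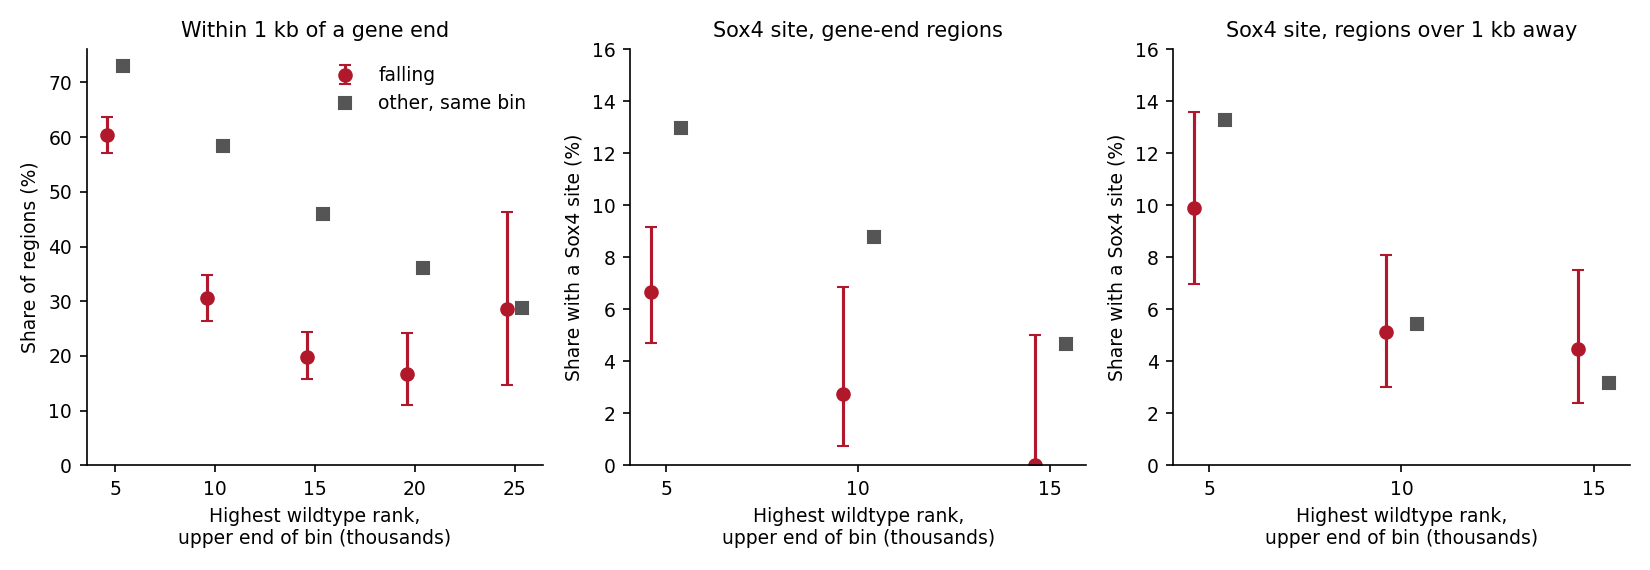
Shares of falling regions (circles, with exact 95% binomial intervals) and of the other regions (squares) in bins of the highest wildtype rank. The left panel shows regions within 1 kb of a gene end, and the middle and right panels show regions with a Sox4 site at gene ends and further away. Falling gene-end regions lie below the others in the first 2 bins of the middle panel, and the intervals of the distant falling regions in the right panel contain the values of the others.

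The falling regions with a Sox4 site and the strongest wildtype ranks were at Xrcc4, Pcf11, Hmgb2, Hibch, Sugct, Nmbr, Serbp1 and Pdgfd. The region at Sugct had ranks 1986 and 770 in the knockout libraries, against 67, 48 and 43 in the wildtype libraries, and Sox4 ranks of 6604 and 7404 in replicates 1 and 3. A region inside Pdgfd, a growth factor of the PDGF family, had ranks 1297 and 838 in the knockout libraries, against 131, 32 and 179 in the wildtype libraries, and Sox4 ranks of 545, 5398 and 18673. The region assigned to Nmbr lay 820698 bp from that gene, with no coding gene within 500 kb, and had ranks 1711 and 643 in the knockout libraries, against 147, 140 and 30 in the wildtype libraries. Sites with windows from all 3 replicates were found at 34 falling regions (1.81%), against 1.93% of the other regions. The regions over 100 kb from any coding gene had a Sox4 site in 9.02% of 266 falling cases (interval 5.87 to 13.1) and in 4.28% of the others. Their median highest wildtype rank was 7568 for falling regions and 15644.5 for the others. Up to rank 5000 the shares were 15.7% of 83 such falling regions (interval 8.61 to 25.3) and 16% of the others, and from 5000 to 10000 they were 6.45% of 93 and 7.35%.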

How the data were processed

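ATAC-seq and Sox4 CUT&RUN peak lists were used as the authors deposited them, 1 list per library. Per the submitters' processing notes, STAR, MACS2, deepTools and UMI-tools were among the tools and the builds were mm10 and GRCm38, with no parameters given. The notes of wildtype replicate 1 name STAR and MACS2, those of wildtype replicate 2 MACS2 and deepTools, and those of the other ATAC libraries all 3. Each deposited peak row gives a fold enrichment over background (a ratio), the -log10 p, and a summit offset from its start, and peaks were called per library. The -log10 p grows with read number, so ranks within a list were compared. The deposited lists held 299829 and 266873 rows for the knockout libraries and 196536, 166874 and 196345 rows for the wildtype libraries.

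Overlapping rows were merged, the 50000 strongest kept, and windows of 250 bp around summits merged across libraries. A region counted for its closest coding gene, up to 100 kb away, in a RefSeq gene table of GRCm38.p6. Named genes were those with the 10 largest ratios, the 10 best highest wildtype ranks, the strongest Sox4 sites, the most falling regions and the members of 20 gene lists; some genes that meet this rule are not reported here. The members and lists were chosen with earlier results of these data known. Shares have exact binomial 95% intervals, which cover counting error only. The class rule was tested on simulated data. Alternatives for the number of peaks, the ratio, the window, the ranking and each left-out library were computed. A further deposited list of Sox4 replicate 1 was used only as an alternative, and the single-cell matrices were not used here. Python 3.11.15, numpy 2.4.6, pandas 2.3.3, scipy 1.17.1 and matplotlib 3.10.9 were used.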

Additional observations from a re-analysis of the deposited data

How the results depend on the processing

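The count of 1881 falling regions became 3434 with a ratio of 1.5, 716 with a ratio of 3, 1056 with 25000 peaks per library, 3159 with 100000 peaks and 1120 with ranks divided by list length. Leaving out each ATAC library gave 2137 to 3218, the highest without knockout replicate 2; a rule over fewer libraries is looser by construction. The gene-end share of 41.3% became 57.2% with 25000 peaks, 28.2% with 100000 peaks, 57.2% with ranking by fold enrichment, 44.0% within 2000 bp and 36.2% with transcription starts alone, and 36.8% to 43.1% without single libraries. Its difference from the other regions, -6.72 points, was -3.29 at a ratio of 1.5, -13.2 at a ratio of 3, -11.2 with scaled ranks, -9.31 with starts alone (from a table that covers 16457 of 20665 coding genes), -19.3 within wildtype rank bins and -11.5 to -4.52 without single libraries. It turned to 15.1 with fold ranking, 5.56 against all other shared regions and 7.79 within gene-density bins, a comparison chosen after seeing the data. The Sox4-site share of 5.58% became 7.96% at a ratio of 3, 6.72% with 25000 and 4.02% with 100000 peaks, 7.02% with fold ranking, 6.96% with scaled ranks, 3.88% with 10000 Sox4 peaks, 8.40% with a longer Sox4 list, 19.4% with any replicate and 1.81% with all 3, and 2.34% to 6.37% without single libraries. Its difference, 0.248 points, was 2.70 with fold ranking, 1.69 with any Sox4 replicate, 2.32 against all other shared regions and 2.37 in distant regions alone. It turned to -2.20 with 25000 peaks, -0.136 without knockout replicate 1, -0.123 without wildtype replicate 1, -0.118 with sites in all 3 Sox4 replicates, -0.785 without Sox4 replicate 2, -3.22 within rank bins and -2.19 at gene ends alone, and ranged from -0.785 to 1.25 without single libraries. The cause was not tested. No paired analysis was possible because no label ties a knockout library to a wildtype library and the counts of regions come from no test. Read depth is unknown and limits every rank.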

Other observations

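Falling regions were unevenly spread over the chromosomes. Of the regions that could pass, 17.5% were falling on chromosome 3, 17.2% on chromosome 13 and 16.1% on chromosome 10. The lowest shares were 4.26% on chromosome 7 and 4.98% on chromosome 11, and the share over all chromosomes was 11.1%. Rising regions had their highest shares on chromosomes 19 (14.2%) and 11 (13.46%), against 7.73% over all chromosomes. Chromosomes differ in gene density and base composition, and the part of these in the shares was not tested.

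Some falling regions outside the naming rule were singled out after their values were seen. A region at Myo3a, a myosin of hair cell stereocilia, had ranks 24356 and 3260 in the knockout libraries, against 243, 8 and 1 in the wildtype libraries, and Sox4 ranks of 7, 12 and 3053 in the 3 CUT&RUN replicates. The knockout replicates differed from each other there by more than the rule asks between groups. A region with no coding gene within 500 kb, 947885 bp from Zeb2, a zinc finger repressor, had ranks 1042 and 831 in the knockout libraries, against 189, 75 and 117 in the wildtype libraries, and Sox4 ranks of 256 and 4653 in replicates 2 and 3.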
